A study of Mus musculus with 12 samples.

Results

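Interferon-induced GTPases of the guanylate-binding protein (Gbp) and immunity-related GTPase (Irg) families were followed by transcript level in CD8+ T cells that carry PD-1 and CD44, sorted from NZB/W F1 mice. The members were 10 of the 18992 genes in the tables, chosen by name: *Gbp2*, *Gbp4*, *Gbp7* and *Gbp10* of the Gbp family, and *Igtp*, *Irgm1*, *Iigp1*, *Tgtp1*, *Tgtp2* and *Gm12185* of the Irg family. All 10 were measured in all 3 groups. NZB/W F1 mice, the hybrid of the NZB and NZW strains, develop a lupus-like disease with nephritis as they age, and the study's methods name female mice. Cells were sorted as PD-1+CD44+CD8+ from spleen at 12 weeks (12W spleen), from spleen at 28 weeks (28W spleen) and from kidney at 28 weeks (28W kidney), and the labels name no treatment or engineered allele for any of them. How many mice gave each library is not given in the sources used here. Each group had 4 labelled samples, and the labels do not say whether these are separate mice or sequencing lanes of the same cells. The deposited tables pool them, so each group is a single library, no replicate spread can be seen and no test between groups was made. For 28W spleen the labels disagree, with 28W in the titles and 12 weeks as the stated age, and the titles were followed.

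Gbp and Irg proteins are GTPases that cells make when interferon reaches them. Gbp proteins coat pathogens and the vacuoles that hold them, and help to break both open. Among Irg proteins, Irgm1 and Igtp sit on the cell's own membranes and hold the other, effector Irg proteins inactive there, while Iigp1 and the Tgtp proteins are effectors that load onto pathogen vacuoles. Interferon gamma (type II interferon) acts on genes through DNA elements called GAS, and interferon alpha and beta (type I) act mainly through elements called ISRE. T cells both make interferon gamma and respond to it.

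Most members lie in 3 gene clusters of the genome, which matters for how their reads were counted. In the GENCODE M21 annotation of GRCm38, *Gbp7* (chr3:142530342-142550149) and *Gbp2* (chr3:142620602-142638008) lie on the plus strand of chromosome 3. *Gbp4* (chr5:105115767-105139586) and *Gbp10* (chr5:105215699-105239533) lie on the minus strand of chromosome 5. *Irgm1* (chr11:48861968-48871683), *Gm12185* (chr11:48904656-48992226), *Tgtp1* (chr11:48985327-48994172) and *Tgtp2* (chr11:49057194-49064206) lie on the minus strand of chromosome 11, and *Igtp* (chr11:58199556-58207591) lies farther along that chromosome on the plus strand. All 10 are annotated as protein coding.

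The sequence just before the transcription start is shown for 7 members with an entry in the RefSeq promoter table (GRCm38.p6). It is shown because these 7 share short interferon-type motifs there, and a link between the motifs and the levels was not tested. Each line is read 5′ to 3′ along the gene's strand, from 100 bases before the RefSeq start to 5 bases past the last motif match. Capitals mark matches to an ISRE-like motif (GAAA, any 2 bases, GAAA) and to a GAS-like motif (TTCNNNGAA, where N is any base), each searched on both strands.
Gbp7, chr3:142530236-142530297, plus strand: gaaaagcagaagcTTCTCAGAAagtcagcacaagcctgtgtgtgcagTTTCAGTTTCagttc
Gbp2, chr3:142620563-142620618, plus strand: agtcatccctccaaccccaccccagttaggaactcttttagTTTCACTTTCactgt
Igtp, chr11:58199456-58199536, plus strand: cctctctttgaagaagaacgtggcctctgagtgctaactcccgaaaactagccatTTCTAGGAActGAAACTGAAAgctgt
Irgm1, chr11:48871430-48871520, minus strand: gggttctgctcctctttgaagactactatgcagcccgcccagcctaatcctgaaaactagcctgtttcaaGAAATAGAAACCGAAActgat
Tgtp1, chr11:48992309-48992346, minus strand: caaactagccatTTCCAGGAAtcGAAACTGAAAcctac
Tgtp2, chr11:49064268-49064312, minus strand: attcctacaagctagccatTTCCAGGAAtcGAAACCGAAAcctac
Gm12185, chr11:48927243-48927282, minus strand: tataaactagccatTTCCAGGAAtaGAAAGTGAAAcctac

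All 7 of these promoters held an ISRE-like match within 250 bases before the start, against 2.98% of 32851 RefSeq promoters of that length. *Gbp2* and *Gbp7* carried it on the opposite strand, and *Irgm1* carried 2 overlapping matches. A GAS-like match was found in 5 of the 7, in *Gbp7*, *Igtp*, *Tgtp1*, *Tgtp2* and *Gm12185*, against 7.02% of all promoters, and these 5 held both motifs, against 0.332% of all promoters. In *Igtp*, *Tgtp1*, *Tgtp2* and *Gm12185* the GAS-like match stands just before the ISRE-like match. All of these, *Igtp* included, share most of the letters in and just before the matches, so they are not independent cases. A match describes letters only, and no binding was measured here. *Gbp4* and *Gbp10* had no entry in the promoter table. *Iigp1*, the member with the largest step with age, was left out of this search, so the motif counts do not cover it.

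Levels are given as unique molecular identifiers (UMIs, each tagging 1 captured transcript) of a gene per 1000000 UMIs of the library (CPM). The 12W spleen library held 6894 cells (34742303 UMIs), the 28W spleen library 6481 cells (32023473 UMIs) and the kidney library 7135 cells (29937384 UMIs), with between 0.802% and 1.02% of cell barcodes shared by any pair of libraries. Transcripts of all 5 sort and CD8 T cell markers were present, and their summed level was 2639 and 2633 CPM in the younger and older spleen and 3352 CPM in kidney. All 5 tubule markers were at 0 UMIs in both spleen libraries and summed to 163 CPM in 28W kidney. Summed over 5 markers each, B cell transcripts ranged from 269 to 431 CPM, myeloid from 30.1 to 314 CPM, endothelial from 38.2 to 50.5 CPM and erythroid from 323 to 2421 CPM across libraries. Intervals below are exact 95% intervals and cover counting error only, not differences between mice or preparations.

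With age, transcripts of every member were more abundant: 28W spleen stood above 12W spleen in 10 of 10 genes, where 35.4% of the 8900 genes with a mean of at least 5 CPM were higher. The members summed to 311 CPM in 12W spleen, against 524 CPM in 28W spleen, and reached 614 CPM in 28W kidney. Their median log2 ratio of 28W spleen over 12W spleen was 0.70, taken after adding 1 CPM to each level, against -0.088 over all genes tested. *Iigp1* alone was at least 2-fold higher, a step that 2.03% of genes reached upward, and no member was at least 2-fold lower, as 0.764% of genes were. *Tgtp2* averaged 4.17 CPM and was below the 5 CPM minimum, so 9 of the 10 members are among the genes tested. With single libraries, age, batch and the mice sampled cannot be told apart.

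**Figure D1:**
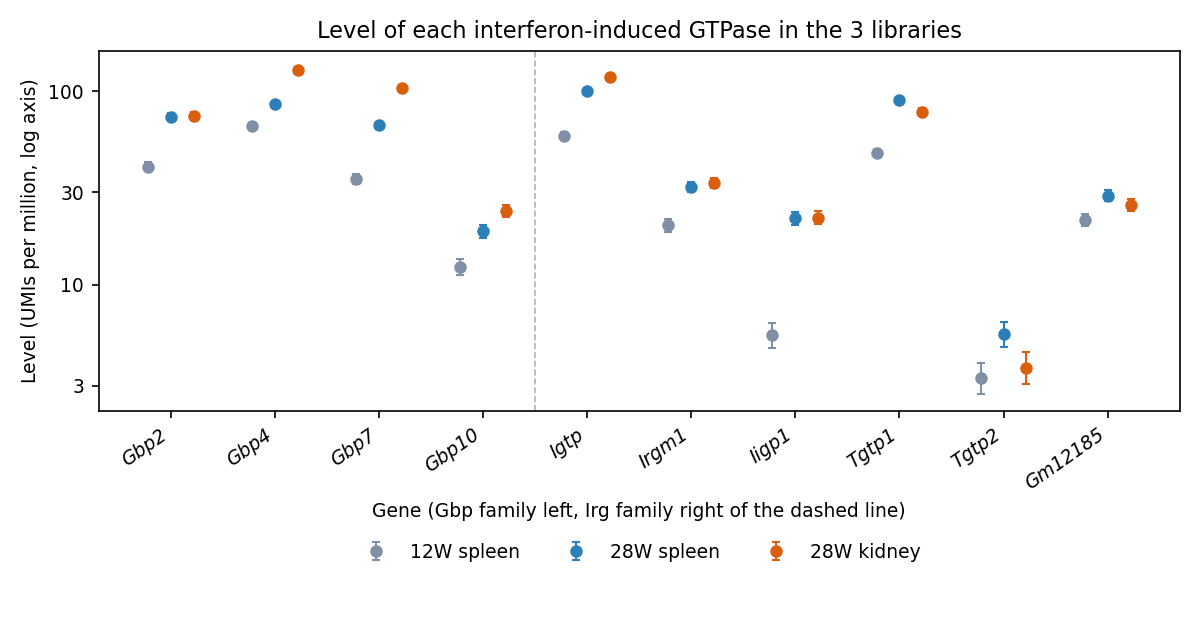
Level of each member in the 3 libraries, as UMIs per 1000000 UMIs on a log axis, with exact 95% Poisson limits (counting error only). Within every gene the 12W spleen point is the lowest, while heights of different genes need care, since some members could exchange reads with a close copy.

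In the Gbp family, *Gbp2*, known for gathering on parasite vacuoles, was at 40.8 CPM in 12W spleen, 73.9 CPM in 28W spleen and 74.8 CPM in 28W kidney. Its 28W spleen level was 1.81-fold that of 12W spleen (1.70 to 1.94). Both 28W libraries were thus alike in *Gbp2*, with a kidney over spleen ratio of 1.01 (0.954 to 1.07).

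*Gbp7*, which has been tied to assembly of the phagocyte oxidase, was at 35.1 CPM in 12W spleen, 66.6 CPM in 28W spleen and 104 CPM in 28W kidney. The step with age was 1.90-fold (1.77 to 2.04) and the step from spleen to kidney 1.57-fold (1.48 to 1.66), so each of the 3 libraries stood apart by more than counting error. *Gbp7* had the largest ratio of 28W kidney over 28W spleen among the 10 members, 0.64 on the log2 scale.

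*Gbp4* was at 65.9 CPM in 12W spleen, 86.1 CPM in 28W spleen and 129 CPM in 28W kidney. Its step with age, 1.31-fold (1.24 to 1.38), was smaller than its step from spleen to kidney, whose interval ran from 1.43-fold to 1.58-fold. *Gbp10* followed the same order at lower counts, with 12.4 CPM in 12W spleen, 18.8 CPM in 28W spleen and 24.0 CPM in 28W kidney. Its ratios were 1.52-fold with age (1.34 to 1.73) and 1.27-fold from spleen to kidney (1.14 to 1.42).

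Of the regulatory Irg genes, *Igtp* was at 58.8 CPM in 12W spleen, 99.9 CPM in 28W spleen and 118 CPM in 28W kidney. It was 1.70-fold higher with age (1.61 to 1.80) and 1.18-fold higher in kidney than in spleen (1.13 to 1.24). *Irgm1*, known in mice for keeping interferon-exposed T cells alive, was at 20.2 CPM in 12W spleen, 32.0 CPM in 28W spleen and 33.5 CPM in 28W kidney. Its step with age was 1.58-fold (1.43 to 1.74), and its kidney and spleen levels at 28 weeks differed by no more than counting error (ratio 1.05, 0.958 to 1.14).

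Among the effector Irg genes, *Iigp1*, whose protein breaks open parasite vacuoles, showed the largest step of all members. It was counted 190 times in 12W spleen, 706 times in 28W spleen and 665 times in 28W kidney, or 5.47, 22.0 and 22.2 CPM. The ratio of 28W spleen over 12W spleen was 4.03-fold (3.43 to 4.76), and the 2 libraries from 28 weeks were level (kidney over spleen 1.01, 0.905 to 1.12).

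*Tgtp1* was at 47.8 CPM in 12W spleen, 90.1 CPM in 28W spleen and 78.3 CPM in 28W kidney. *Tgtp2* was at 3.28 CPM in 12W spleen, 5.53 CPM in 28W spleen and 3.71 CPM in 28W kidney, the lowest counts of any member at 114, 177 and 111 UMIs. *Gm12185*, which RefSeq lists with an Irg synonym, was at 21.7 CPM in 12W spleen, 28.8 CPM in 28W spleen and 25.8 CPM in 28W kidney. All 3 genes were therefore highest in 28W spleen, the only members with that order. Their kidney over spleen ratios were 0.869 for *Tgtp1* (0.822 to 0.918), 0.671 for *Tgtp2* (0.524 to 0.855) and 0.894 for *Gm12185* (0.811 to 0.984). For *Tgtp2* the counting limits of 12W spleen (2.71 to 3.94 CPM) and 28W kidney (3.05 to 4.47 CPM) overlapped.

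Between organs the chosen members of the 2 families gave different medians, a contrast that was not tested. Listed Gbp genes outside the members were mixed. On the log2 scale *Gbp6* was at 0.50, *Gbp3* at 0.40, *Gbp8* at 0.31, *Gbp9* at 0.04, *Gbp5* at -0.04 and *Gbp2b* at -0.09. The Irg gene *Irgm2* was at 0.39. The 4 Gbp members had a median log2 ratio of 28W kidney over 28W spleen of 0.46, and the 6 Irg members had a median of -0.07, against 0.063 over all genes. Overall 7 members were higher in kidney and 3 were lower, where 59.6% of genes were higher. None was 2-fold higher, as 4.42% of genes were, and none 2-fold lower, as 1.42% were. Summed Gbp transcripts were at 245 CPM in 28W spleen and 332 CPM in 28W kidney, while summed Irg transcripts were at 278 and 282 CPM. Kidney tissue was digested with collagenase and spleen digestion is not described, so organ and preparation cannot be told apart. The ratios of *Gbp2*, *Irgm1* and *Iigp1* were near 0 and turned negative (-0.14, -0.09 and -0.14) when T cell receptor, immunoglobulin, mitochondrial and ribosomal protein genes were taken out of the library total, a change that moved the median ratio by -0.16. Centring on the median gene turned *Gbp2* and *Iigp1* negative as well, at -0.05 each. *Tgtp1* and *Gm12185* turned positive (0.14 each) without clusters that carried B cell, myeloid, tubule, endothelial or erythroid markers, and the median of the Gbp members was then 0.76. The median of the Irg members then turned positive as well, at 0.18, with 9 of 10 members higher in kidney. It was also positive, at 0.04, with the erythroid-marked clusters kept in, and at 0.04 without the cluster of highest summed level in each library. With deposited cluster means averaged over cells it was 0.0029, and without *Tgtp1*, *Tgtp2* and *Gm12185* 0.06, so its sign was not stable. The rule with erythroid markers also took out cluster 11 of 28W kidney, which carried proliferation markers (3746 CPM) and had a member sum of 338 CPM. Cluster 6 of 28W spleen, with proliferation markers at 1340 CPM and a member sum of 257 CPM, was kept. The part of this in the ratios was not tested.

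**Figure D2:**
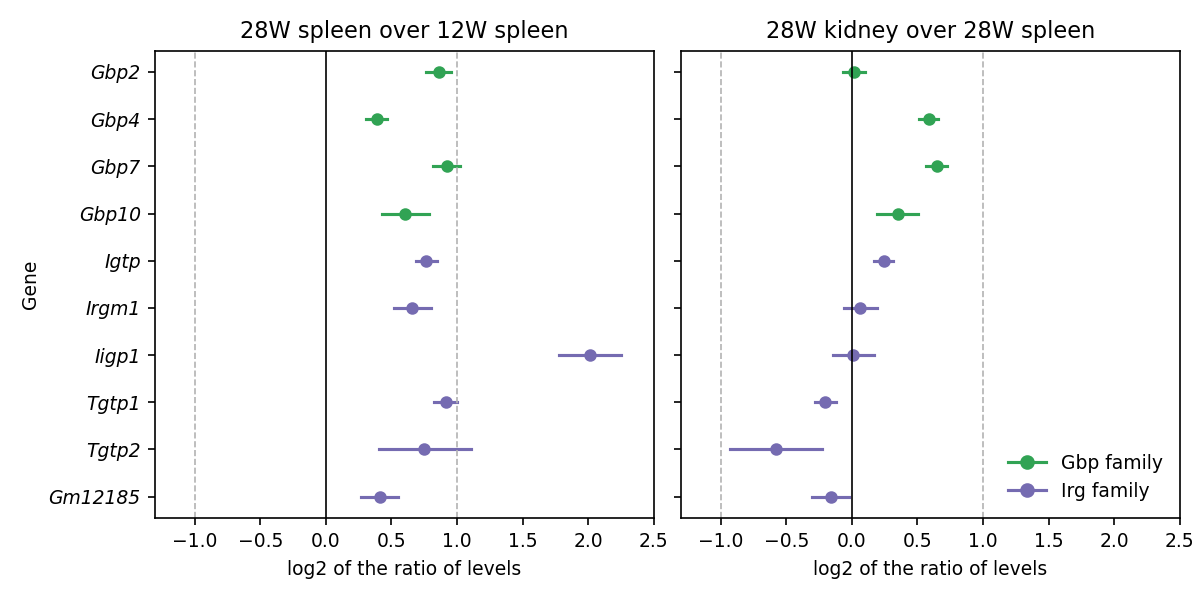
Log2 ratio of levels of each member with its exact 95% counting interval, for age (left) and organ (right), with no pseudocount. Dashed lines mark 2-fold. All 10 age ratios lie right of 0, while organ ratios run from *Gbp7* on the right to *Tgtp2* on the left, and those of *Gbp2*, *Irgm1* and *Iigp1* touch 0 and change sign with the scaling.

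Some members could exchange reads with a close copy. The coding sequences of *Tgtp1* and *Tgtp2* were identical at 1241 of 1245 bases, those of *Gbp10* and *Gbp6* at 1803 of 1833, and *Gbp4* shared 92.9% of aligned coding bases with *Gbp8* and 90.2% with *Gbp9*. How the authors' counting treated reads that fit several genes is not given in the sources used here, so the split within each of these groups is uncertain. Of the UMIs of the pair in 12W spleen, *Tgtp2* took 6.42% (5.32% to 7.66%). Its share was 5.78% in 28W spleen (4.98% to 6.66%) and 4.52% in kidney (3.73% to 5.42%), and the interval of 28W spleen overlapped both others. Taken as sums, *Tgtp1* with *Tgtp2* gave 51.1 CPM in 12W spleen, 95.6 CPM in 28W spleen and 82.0 CPM in kidney. *Gbp10* with *Gbp6* gave 17.2, 27.8 and 37.1 CPM, and *Gbp4* with *Gbp8* and *Gbp9* gave 172, 202 and 259 CPM. Each sum kept the order of its member, although the age ratio of the *Gbp4* group was 0.23 on the log2 scale against 0.38 for *Gbp4* alone.

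Annotated exons also overlap on the same strand. *Gbp10* shares 46.3% of its exonic bases with the gene model *Gm43302*, *Igtp* shares 8.01% with its neighbour *Irgm2*, *Tgtp1* shares 6.96% with *Gm12185*, and *Gbp4* shares under 1% with each of *Gbp8* and *Gbp9*. Irg genes also vary between mouse strains, and NZB/W F1 reads were set against GRCm38, which is the C57BL/6J genome. The part of this in the levels was not tested.

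Levels were not even across the 33 clusters that the authors deposited (10 for 12W spleen, 11 for 28W spleen and 12 for 28W kidney). Clusters were made within each library from all genes, members included, so a cluster set against the rest is a description, and cluster numbers do not correspond between libraries. Summed over the 10 members, clusters of 12W spleen ran from 68.2 to 572 CPM with a median of 337 CPM. Clusters of 28W spleen ran from 257 to 993 CPM with a median of 493 CPM. Clusters of 28W kidney ran from 248 to 1260 CPM with a median of 610 CPM. Both ends of the range were thus higher at 28 weeks: 3 of 11 clusters in 28W spleen and 7 of 12 in 28W kidney stood above the highest cluster of 12W spleen. That cluster, the mitochondrial-rich cluster 8, rests on 163 member UMIs with an interval of 488 to 667 CPM. The interval holds clusters 1, 4 and 9 of 28W kidney (637, 587 and 632 CPM), so these are not above it beyond counting error.

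**Figure D3:**
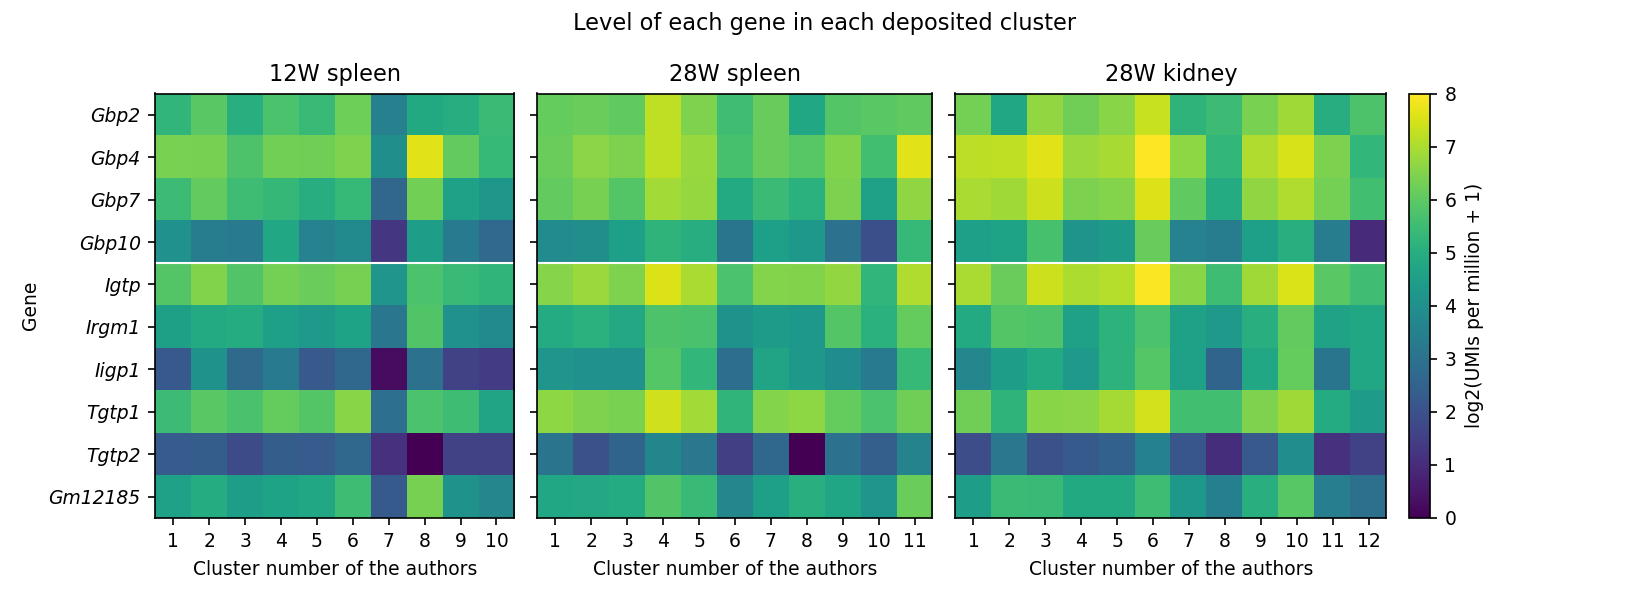
Level of each member (rows) in each deposited cluster (columns) of the 3 libraries, as log2(UMIs per 1000000 + 1), with the 4 Gbp genes above the white line. Cluster 7 of 12W spleen is dark in nearly every row, whereas cluster 4 of 28W spleen and cluster 6 of 28W kidney are bright in nearly every row.

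Cluster 4 of 28W spleen (853 cells) had the highest summed level of its library, 993 CPM, or 2.13-fold that of the other cells (2.06 to 2.22). It held 13.2% of the cells and 21.1% of the members' UMIs. Every member was higher there than in the other cells, from 1.84-fold for *Irgm1* to 3.36-fold for *Iigp1*, and 29.6% of all *Iigp1* UMIs of the library fell in this cluster. It also had the most member UMIs per cell of its library (4.15). The type I targets *Ifit3* (345 CPM) and *Isg15* (513 CPM) are given for the same cells. B cell markers summed to 169 CPM, myeloid to 6.74 CPM and erythroid to 7.02 CPM there, each below the other cells of the library, so the high level sat in cells without raised markers of those types.

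Cluster 6 of 28W kidney (604 cells) was its counterpart in level, at 1260 CPM, 2.21-fold the other cells (2.12 to 2.31). Per cell it came second in its library, with 4.03 member UMIs against 4.21 in cluster 3. It held 8.47% of the cells and 13.3% of the members' UMIs. Folds of single members ran from 1.64 for *Irgm1* to 3.36 for *Gbp10*, and *Gbp4* (251 CPM), *Igtp* (247 CPM) and *Gbp7* (190 CPM) had their highest levels of all 33 clusters. *Isg15* was at 908 CPM and *Ifit3* at 478 CPM in the same cells, and proliferation markers were at 39.3 CPM against 664 CPM elsewhere. Next in kidney by CPM came cluster 10 (425 cells, 972 CPM) and cluster 3 (806 cells, 912 CPM). In cluster 10 *Iigp1* (68.4 CPM) and *Tgtp2* (14.2 CPM) were higher than in any other cluster of the series, on 53 and 11 UMIs. The cells of cluster 10 held 1822 UMIs on average, and only 1.77 member UMIs per cell against a library mean of 2.58.

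In 12W spleen the order also depended on the scale. Cluster 8 (307 cells) had the highest summed level, 572 CPM, 1.85-fold the other cells (1.58 to 2.16), but its cells held 928 UMIs on average and 8.98% of these were mitochondrial. Per cell it had the fewest member UMIs of the library, 0.531, or 0.328-fold the other cells. Its members also split: *Gm12185* was 3.81-fold, *Gbp4* 3.04-fold and *Irgm1* 2.82-fold the other cells. *Gbp2* was at 0.687-fold on only 8 UMIs, and *Tgtp2* was at 0 UMIs, which allows up to 10.5 CPM at this depth. Clusters 6 (503 cells, 469 CPM) and 2 (1118 cells, 446 CPM) followed, with cells of 3709 and 3467 UMIs, and cluster 2 held the highest *Iigp1* of 12W spleen, 16.3 CPM.

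A like split appeared in the other clusters rich in mitochondrial UMIs. Cluster 11 of 28W spleen held 215 cells with 6.64% mitochondrial UMIs. It had the highest *Gbp4* (199 CPM), *Irgm1* (68.6 CPM), *Gm12185* (72.2 CPM) and *Gbp10* (39.7 CPM) of its library. These levels rest on 55, 19, 20 and 11 UMIs, in the order given. Their counting intervals hold the levels of cluster 4 (150, 53.9, 55.6 and 36.2 CPM), for *Gbp4* only at the lower limit. *Gbp2* was at 65.0 CPM and *Tgtp1* at 75.8 CPM in cluster 11. Cluster 2 of 28W kidney (806 cells, 10.8% mitochondrial) had *Gbp4* at 150 CPM and *Irgm1* at 56.8 CPM beside the lowest *Gbp2* of the library, 26.9 CPM. In these 3 clusters *Gbp4*, *Irgm1* and *Gm12185* were above the level of their library. *Gbp2* was below its library in each, but beyond counting error only in cluster 2 of 28W kidney. It was nearest in cluster 11 of 28W spleen (library 73.9 CPM). In cluster 8 of 12W spleen *Gbp2* rested on 8 UMIs (28.1 CPM, library 40.8 CPM). Cluster 8 of 28W spleen, with the fewest UMIs per cell of its library (1020) and 1.71% mitochondrial, had *Gbp4* at 60.0 CPM and *Irgm1* at 18.2 CPM, both below the library. The part of RNA quality in this was not tested. Without the 3 clusters of at least 5% mitochondrial UMIs, the median ratio of the members was 0.70 for age and 0.04 for organ.

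Low levels met in several kinds of cells. Cluster 7 of 12W spleen (372 cells, 13406 UMIs per cell) had the lowest level of 9 of the 10 members in its library and a sum of 68.2 CPM, 0.194-fold the other cells. Counted per cell it held 0.914 member UMIs against a library mean of 1.57, so the gap was smaller on that scale. The clusters with proliferation markers were low per 1000000 UMIs but not per cell: cluster 10 of 12W spleen had 197 CPM and 2.83 member UMIs per cell, cluster 6 of 28W spleen 257 CPM and 3.14, and cluster 11 of 28W kidney 338 CPM and 3.85. Several clusters with markers of other cells were low too, such as the B cell-marked cluster 8 of 28W kidney (248 CPM, B cell markers 2675 CPM), the myeloid-marked cluster 12 of 28W kidney (267 CPM, myeloid markers 8518 CPM) and cluster 10 of 28W spleen (286 CPM, with B cell markers at 4348 CPM).

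**Figure D4:**
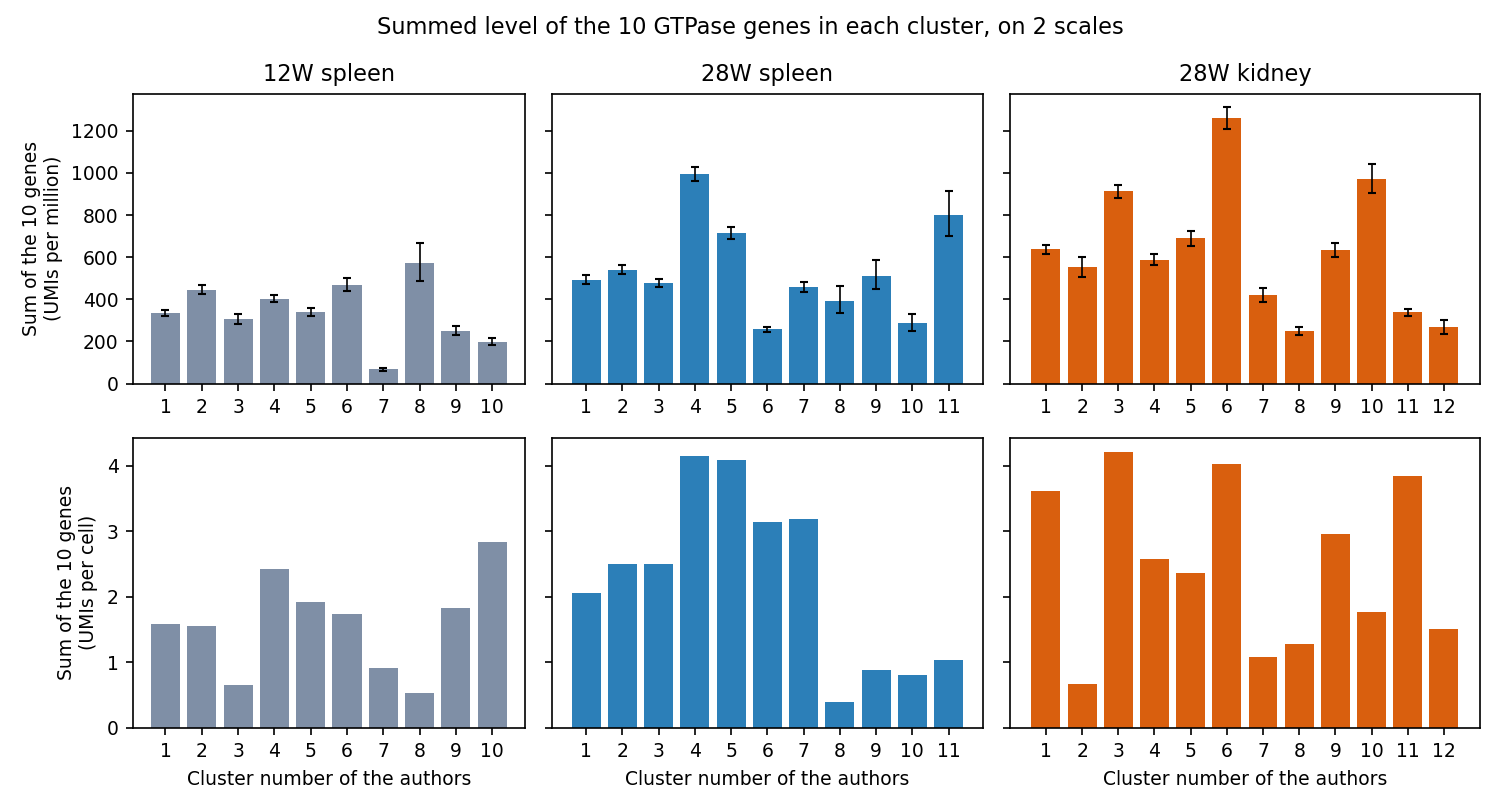
Sum of the 10 members in each deposited cluster as UMIs per 1000000 UMIs of the cluster (top, bars with exact 95% Poisson limits) and as UMIs per cell (bottom, no error shown). Cluster 8 of 12W spleen is the highest of its library on the top scale and the lowest on the bottom scale, while cluster 4 of 28W spleen is the highest on both.

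Single members spread differently over clusters. *Igtp* exceeded its highest 12W spleen cluster in 7 of 11 clusters of 28W spleen and in 8 of 12 of 28W kidney, and *Iigp1* did so in 6 and 9. *Gbp7* did so in 5 clusters of 28W spleen and 9 of 28W kidney. *Gm12185* did so in none, since its highest 12W spleen cluster was the mitochondrial-rich cluster 8 at 80.7 CPM. The median cluster of *Iigp1* was at 4.53 CPM in 12W spleen, 17.1 CPM in 28W spleen and 24.5 CPM in 28W kidney, so the median cluster of 28W spleen lay above the highest cluster of 12W spleen.

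Across the 33 clusters the members varied together. Each gene was taken as log2(CPM + 10) less the mean of its library's clusters, and each member's Pearson r with the mean of the other 9 ran from 0.67 for *Tgtp2* to 0.92 for *Igtp*. The pair most alike was *Gbp4* and *Gm12185* (r = 0.92) and the pair least alike was *Gbp2* and *Irgm1* (r = 0.46). These values describe 33 clusters that share libraries, depth and the clustering itself, and no p is given. *Tgtp2* within 12W spleen (r = 0.35) rests on 114 UMIs.

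Genes outside the members with profiles most like their mean, among those with a mean of at least 5 CPM, were *Gbp8* (r = 0.93), *Dtx3l* (0.91), *Ddx58* (0.91), *Ifi208* (0.91), *Gbp9* (0.90), *Ifi203* (0.90), *Fam102a* (0.89), *Trim21* (0.89) and *Slfn1* (0.89). With the members' mean, the mean of 7 type I interferon targets (*Isg15*, *Isg20*, *Ifit1*, *Ifit3*, *Rsad2*, *Oasl2* and *Bst2*) had an r of 0.75. The r was 0.64 for *Irf1* and 0.40 for *Ifng*. The 9 genes above were picked for their high r, so they are no yardstick for these values.

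Members differed in this. *Iigp1* had the highest r with the type I targets (0.84), followed by *Igtp* (0.77), and *Gbp4* had the lowest (0.51). With *Irf1*, an interferon gamma-induced transcription factor, *Gm12185* (0.75) and *Irgm1* (0.73) were highest and *Tgtp2* (0.30) and *Gbp2* (0.34) lowest. In both spleens *Irf1* was highest in a mitochondrial-rich cluster, where *Gm12185* and *Irgm1* were also highest. These were cluster 8 of 12W spleen (*Irf1* 298 CPM) and cluster 11 of 28W spleen (379 CPM). In 28W kidney *Irf1* was highest in the B cell-marked cluster 8 (317 CPM). The part of RNA quality in these r values was not tested.

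**Figure D5:**
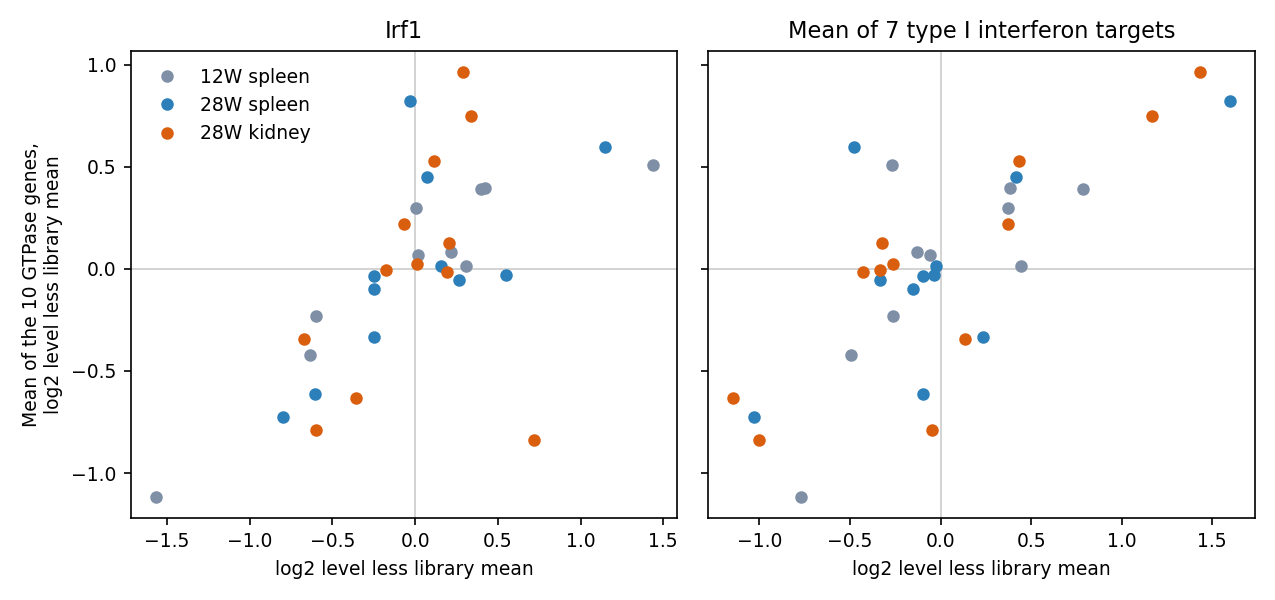
Mean of the 10 members against *Irf1* (left) and against the mean of 7 type I interferon targets (right) in the 33 deposited clusters, each as log2 level less the mean of its library's clusters, coloured by library. Clusters high in the members tend to be high in *Irf1* (r = 0.64) and in the type I targets (r = 0.75), with wide spread in both panels.

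Other GTPases induced by interferon shared the age direction. Of 19 listed, 16 were in the tables. All 16 were higher in 28W spleen than in 12W spleen, with a median log2 ratio of 0.75 and 2 at least 2-fold higher. For this list and those below, 35.4% of all genes tested were higher with age and 2.03% at least 2-fold higher, with a median of -0.088. Between organs 59.6% of all genes tested were higher in kidney, with a median of 0.063. *Mx1*, an antiviral dynamin-like GTPase, was at 4.81 CPM in 12W spleen, 18.7 CPM in 28W spleen and 35.9 CPM in 28W kidney. *Gm4841*, an Irg-like gene, was counted 8, 117 and 119 times in the same order. Others moved little: *Gbp8* was at 43.5, 46.9 and 58.4 CPM and *Gbp9* at 63.1, 69.0 and 71.0 CPM, although their profiles over clusters were among those most like the members. Between organs 10 of the 16 were higher in kidney and 6 lower, with a median of 0.09, near the values of all genes tested. *Gbp3*, at 37.7, 72.8 and 96.0 CPM, and *Irgm2*, at 5.70, 11.6 and 15.5 CPM, had the order of *Gbp7* and *Igtp*.

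Genes that make and relay interferon gamma were mixed. Of 7 taken, 4 were higher and 3 lower with age, with a median of 0.21. *Ifng*, the cytokine itself, was at 10.0 CPM in 12W spleen, 63.5 CPM in 28W spleen and 85.0 CPM in 28W kidney. *Socs1*, which damps Jak signalling, was at 29.1, 68.3 and 91.1 CPM, and *Irf1* at 101, 155 and 196 CPM. *Ifng*, *Socs1* and *Irf1* were thus highest in 28W kidney. The receptor chain *Ifngr2* went the other way with age, with 290, 96 and 216 UMIs in 12W spleen, 28W spleen and kidney, and *Ifngr1* was at 169, 160 and 211 CPM. Between organs 6 of the 7 were higher in kidney and 1 lower, with a median of 0.39.

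Other targets of interferon gamma, 9 genes of antigen presentation, chemokines and checkpoints, were all higher with age (median 0.40) and all higher in kidney than in 28W spleen (median 0.42). *Cxcl10*, a chemokine that draws activated T cells, was at 2.76, 12.8 and 41.5 CPM, and *Psmb9*, an immunoproteasome subunit, at 305, 403 and 540 CPM. *Ido1* had 2, 3 and 3 UMIs, too few to place.

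Type I interferon targets had the largest median age ratio of the lists: all 8 were higher in 28W spleen, 7 at least 2-fold, with a median of 1.31, and 7 of 8 were higher in kidney, with a median of 0.58. *Ifit3* was at 28.3, 95.3 and 132 CPM and *Isg15* at 66.5, 171 and 286 CPM. *Oasl2* was the exception in kidney, at 5.01, 19.6 and 13.3 CPM, an order it shared with *Tgtp1*. The 7 genes that relay type I interferon had medians of 0.49 for age (7 higher) and 0.11 for organ (6 higher, 1 lower), and *Usp18*, which limits this signal, was at 19.6, 64.0 and 50.4 CPM.

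Gbp and Irg proteins find their target membranes with the help of the ATG8 conjugation machinery, which marks membranes in autophagy. Its 9 listed genes did not share the members' age direction, with 4 higher, 5 lower and a median of -0.07. Over all genes tested 35.4% were higher, with a median of -0.088. In kidney 7 were higher and 2 lower with a median of 0.25, against 59.6% higher and a median of 0.063 over all genes. *Atg5* was at 44.4, 39.6 and 50.9 CPM, and *Gabarapl2* at 224, 244 and 320 CPM.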

How the data were processed

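For each of the 3 groups the authors deposited a cluster number per cell barcode and, per gene and cluster, a mean UMI count (scaled per library), a log2 fold change against the other cells and an adjusted p-value. The last 2 are the authors' own comparisons and were not used. Submitters' processing notes name Cell Ranger 2.1.1, R 3.6.1 and GRCm38, while the study's methods name a Cell Ranger vdj pipeline with GRCm38. The annotation release, cell filters and doublet treatment are not given in the sources used here.

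Values of each deposited column of mean counts were whole multiples of 1 step (552714 of 552714 within 0.001), which gave whole UMI counts. These were summed over clusters and divided by the library total (CPM). The 3 tables were normalized separately, so levels across them rest on this total. Log2 ratios used a pseudocount of 1 CPM, which understates changes of low genes, and folds and intervals used none. Intervals were exact: Poisson for CPM, Clopper-Pearson for folds and shares. Calls of 2-fold used 8900 genes with a mean of at least 5 CPM. A cluster counted as carrying markers of another cell type at 200 CPM and 5-fold. Named genes were all members, the fixed lists and the 10 genes most like the members' mean. 1 gene of a list is not reported here. Members and lists were chosen with earlier results of these data known. *Gbp11*, *Mx2* and *Gm12250* of the lists were not matched in the tables. Ratios and intervals were tested on simulated data. Python 3.11.15, numpy 2.4.6, pandas 2.3.3, scipy 1.17.1 and Biopython 1.88 were used.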

Additional observations from a re-analysis of the deposited data

How the results depend on the processing

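No paired analysis was possible because each table pools the 4 samples of its group, and leaving out single samples was not possible for the same reason. Age ratios of members kept their sign in 97 of 97 recalculations and organ ratios in 90 of 97. These counts include settings that could not change a sign. A larger pseudocount cannot turn a ratio (10 of the 97 in each comparison). The minimum of 20 UMIs (10) and the setting without *Tgtp1*, *Tgtp2* and *Gm12185* (7) returned the main values. For age, the marker rules with and without erythroid markers left out the same clusters. The median age ratio (0.70) became 0.57 with a pseudocount of 10 CPM and 0.56 without the cluster of highest summed level in each library. The median organ ratio (0.04) became -0.12 with the library total without T cell receptor, immunoglobulin, mitochondrial and ribosomal protein genes, 0.31 without clusters carrying B cell, myeloid, tubule, endothelial or erythroid markers, and 0.24 without *Tgtp1*, *Tgtp2* and *Gm12185*. *Tgtp1* and *Gm12185* were each reversed to 0.14 without those marked clusters, which left 65.4% of kidney cells. That setting took out the cluster with proliferation markers in 28W kidney but kept the one in 28W spleen. The fold of the highest 12W spleen cluster (1.85) became 1.36 as a mean of logs, 1.54 without the member with the most UMIs and, reversed, 0.328 per cell. Per cell, the folds of the highest clusters were 1.76 in 28W spleen and 1.65 in 28W kidney. Leaving out members with under 20 UMIs removed none. The settings with mitochondrial-rich clusters left out and with UMIs per cell were chosen after seeing the data. The cause of each change was not tested. *Tgtp2*, at 111 to 177 UMIs per library, is the member whose ratios counting error limits most.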
